A study of Oryza sativa Japonica Group with 4 samples.

Results

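Agglutinin, PBZ1, PRX112 and PRX74 are 4 rice defence genes, compared here between nitrogen-starved roots and roots given glutamate. They were taken by gene name, and the names had been chosen on earlier results for these same arrays, so that the difference between the groups is described for them and not tested. The 4 genes are among 17905 genes that the array annotation ties to at least 1 probe set of their own, and they are covered by 5 probe sets: 1 each for Agglutinin (LOC4335068), PBZ1 (LOC4352491) and PRX74 (LOC4339222), and 2 for PRX112, also listed as POXGX9.

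Seedlings of the Japonica rice cultivar TNG67 were germinated in the dark, grown hydroponically without NH4NO3, and at 17 days of age moved for 30 min either to nitrogen-free solution (−N) or to the same solution with 2.5 mM glutamate (+Glu). All 4 root samples were therefore nitrogen-starved and all had been transferred. The labels list 2 biological repeats per group and do not say how many plants were pooled in each. Total root RNA was labelled with biotin and read on Affymetrix rice genome arrays, where a set of short probes stands for each transcript, and every array gave each probe set a linear (not log) intensity. In such bulk RNA, fewer cells of a type and less RNA per cell cannot be told apart.

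Lectins, the agglutinins among them, are proteins that bind particular sugars, and many plant lectins accumulate after wounding or attack. PBZ1 encodes a small pathogenesis-related protein of the PR10 family and is named for its induction by the plant-defence activator probenazole. Class III peroxidases such as PRX112 and PRX74 are secreted haem enzymes that use hydrogen peroxide to oxidise phenolic compounds, which includes the cross-linking of lignin and other cell wall polymers.

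The arrays themselves differed in how far they stood apart. Median intensities were 20.1 and 23.9 in the −N arrays and 19.3 and 23.9 in the +Glu arrays. Both −N arrays stood apart from the rest more often than the +Glu arrays did. The array of −N replicate 2 was at least 2-fold above each of the other 3 arrays in 125 genes (0.698% of those measured) and at least 2-fold below them in 132, and −N replicate 1 was above in 17 genes and below in 116. The +Glu arrays were above in 3 and 10 genes and below in 2 and 1. Of the root markers, the silicon transporter gene Lsi1 read 7085 and 9275 in −N and 7831 and 8863 in +Glu, whereas the SCARECROW gene OsSCR1 stayed between 8.74 and 12.0 in all arrays. Shoot markers were bright as well, although the labels give root as the tissue. The methods name RNA from roots and shoots, and the paper reports the array results of each separately. The chlorophyll a/b-binding protein gene CAB2R read 8748 and 10780 in −N and 10640 and 9106 in +Glu, and the Rubisco activase gene rca read 381.3 and 1275 in −N and 927.9 and 875.4 in +Glu. The summed intensity of the 5 measured shoot markers lay between 10130 and 14010 in −N and between 12010 and 13160 in +Glu, and that of the 5 measured root markers between 7973 and 11150 in −N and between 8703 and 9922 in +Glu. CAB2R and Lsi1 made up most of these sums. By the brightest probe set of each gene, all 5 shoot markers had a positive log2 difference of +Glu over −N (0.02 to 0.54). In 2 of them, GLO1 and RBCS1, the +Glu arrays lay wholly above the −N arrays, against 14.9% of all genes. Other probe sets differed. The 4 of another shoot marker, OsrbcS, ran from −0.36 to 0.28 and the 2 of GLO1 from 0.13 to 0.54. GLO1, a glycolate oxidase gene, read 688.8 and 757.0 in −N and 917.3 and 1206 in +Glu (1.46-fold), and RBCS1 was near the lowest intensities of the table at 4.01 to 4.91. Of the 5 root markers 4 had a negative log2 difference (range −0.55 to 0.04), all with overlapping groups. The part of tissue composition in the differences between the groups was not tested.

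Agglutinin was the member whose groups stood apart. Its intensity was 23.2 in −N replicate 1 and 40.3 in −N replicate 2, and 100.4 in +Glu replicate 1 and 175.8 in +Glu replicate 2. Both glutamate arrays thus read higher than both nitrogen-free arrays, with the lower +Glu array at 2.49 times the higher −N array. The median intensities of the −N arrays were 20.1 and 23.9, and no detection call says whether the −N values of Agglutinin exceed background. The group means were 31.8 ± 12.1 in −N and 138.1 ± 53.3 in +Glu (SD, n = 2 each). On the log2 scale the difference was 2.12, a 4.34-fold higher level in +Glu. Its limma standard error was 0.40, beside a within-group SD of 0.57 in log2 units. Standard errors throughout are moderated, that is, drawn towards the spread of all genes. With 2 arrays per group the unmoderated standard error equals the within-group SD.

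The spread of Agglutinin ran the same way in both groups. Replicate 2 read 1.74 times replicate 1 in −N and 1.75 times in +Glu, so that the ratio of +Glu over −N was 4.33 (replicate 1) and 4.36 (replicate 2) when arrays of the same number were set side by side. The labels give no shared batch for arrays of the same number. Crossed, the ratio was 2.49 for +Glu replicate 1 over −N replicate 2 and 7.57 for +Glu replicate 2 over −N replicate 1. Agglutinin was 1 of 3 genes that were at least 4-fold higher in +Glu in both of these side-by-side ratios, and 1 of 26 genes with a log2 difference at least as high as its own (0.145% of genes). Over all genes, 1.68% were at least 2-fold higher in +Glu with an unadjusted limma p under 0.05, and in 14.9% the lower +Glu array exceeded the higher −N array. These shares are background only, because the same difference had a part in the choice of the gene. Leaving out any 1 array left the log2 difference between 1.71 and 2.52, and log2(value + 16), which damps dim probe sets, gave 1.67.

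**Figure D1:**
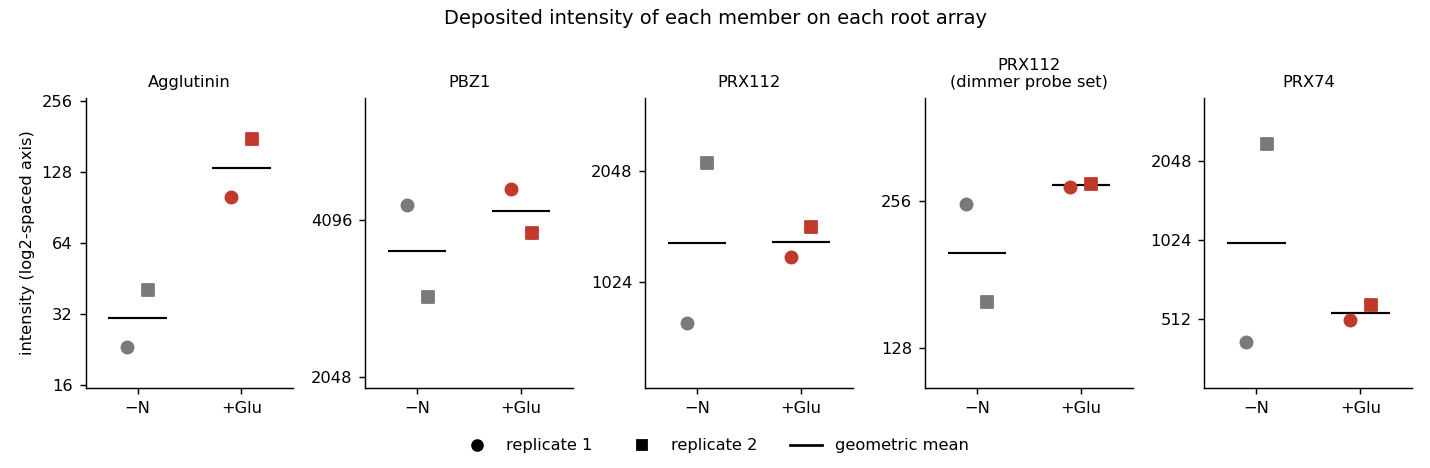
Deposited intensity (vertical axis, log2-spaced, with its own range in each panel) of the 5 probe sets of the 4 genes on each −N array (grey) and +Glu array (red), circles for replicate 1, squares for replicate 2 and lines for the geometric mean of each group. Agglutinin lies at 23.2 and 40.3 in −N and 100.4 and 175.8 in +Glu, while in PRX74 the −N arrays at 419.7 and 2383 enclose both +Glu arrays.

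PBZ1 was bright on every array and its groups overlapped. Its intensity was 4388 and 2921 in −N and 4694 and 3879 in +Glu, for replicates 1 and 2. The highest and the lowest of the 4 arrays differed by no more than 1.61-fold, and −N replicate 1 read higher than +Glu replicate 2. Group means were 3655 ± 1037 in −N and 4286 ± 576 in +Glu (SD, n = 2 each). The log2 difference was 0.25 (1.19-fold), with a moderated standard error of 0.29 and a within-group SD of 0.32. It was smaller than the gap of 0.59 between the −N arrays. Within replicate numbers +Glu over −N was 1.07 and 1.33. Without −N replicate 2 the log2 difference was −0.04, and without −N replicate 1 it was 0.55, so that its sign rested on which nitrogen-free array was used.

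PRX112 showed no common direction over its arrays. Its brighter probe set read 787.2 and 2158 in −N and 1195 and 1443 in +Glu. Both +Glu values lay between the nitrogen-free values, which were 2.74-fold apart. Group means were 1473 ± 969 in −N and 1319 ± 175 in +Glu (SD, n = 2 each). The log2 difference was 0.01 (1.01-fold), with a moderated standard error of 0.50 and a within-group SD of 0.74. Replicate 1 gave a ratio of 1.52 and replicate 2 a ratio of 0.669. A difference of 0.01 here is the mean of opposite ratios and not of 2 ratios near 1. Leaving out −N replicate 1 turned it to −0.72, and leaving out −N replicate 2 turned it to 0.74.

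The second PRX112 probe set did not follow the first. It read 252.3 and 159.2 in −N and 273.5 and 276.6 in +Glu. Here −N replicate 2 was the lowest array, whereas the same array was the highest of the brighter probe set. Both glutamate arrays exceeded the nitrogen-free arrays, at means of 275.1 ± 2.18 and 205.7 ± 65.8 (SD, n = 2 each), a log2 difference of 0.46 or 1.37-fold. In 14.9% of genes the arrays fell in this order. The levels of the probe sets are not comparable with each other, since each has probes of its own, and which of them reads the PRX112 transcript better was not tested.

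PRX74 was the member with the widest spread. Its intensity was 419.7 and 2383 in −N and 507.7 and 578.6 in +Glu. One nitrogen-free array, replicate 2, stood 5.68-fold above the other, and the remaining 3 arrays lay between 419.7 and 578.6. The group means were 1402 ± 1389 in −N and 543.1 ± 50.1 in +Glu (SD, n = 2 each). On the log2 scale the difference was −0.88, a ratio of 0.542 of +Glu over −N. Its moderated standard error was 0.79, beside a within-group SD of 1.26. Only 43 of all genes (0.240%) had a log2 difference this low, yet the groups of PRX74 overlapped. Its difference did not reach the 2-fold limit, which 0.0447% of genes passed as lower with an unadjusted limma p under 0.05. As for Agglutinin, these shares are background only, because the same difference had a part in the choice of the gene.

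The sign of the PRX74 difference changed without that array. Replicate 1 gave a ratio of 1.21 of +Glu over −N and replicate 2 a ratio of 0.243. Without −N replicate 2 the log2 difference was 0.37, and without −N replicate 1 it was −2.14. On the array of −N replicate 2 other genes were high too, and PRX74 was 1 of 22 genes (0.123%) that were at least 4-fold above each of the other arrays there. The shoot markers rca and OsrbcS, the latter a gene of the Rubisco small subunit, were 3.35 and 3.85 times as high in −N replicate 2 as in −N replicate 1. The other shoot markers were not, with ratios of 1.23 in CAB2R, 1.10 in GLO1 and 0.877 in RBCS1. Among the root markers the iron transporter gene IRT1 and the silicon transporter gene Lsi2 were 2.49 and 2.08 times as high there, against 1.49 in OsSHR1, 1.31 in Lsi1 and 0.845 in OsSCR1. The ratios thus differed between the markers of either tissue. Those below 1 were of dim genes, RBCS1 at 4.57 and 4.01 and OsSCR1 at 11.96 and 10.11 in −N replicates 1 and 2. The part of tissue composition in the PRX74 and PRX112 values of this array was not tested.

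**Figure D2:**
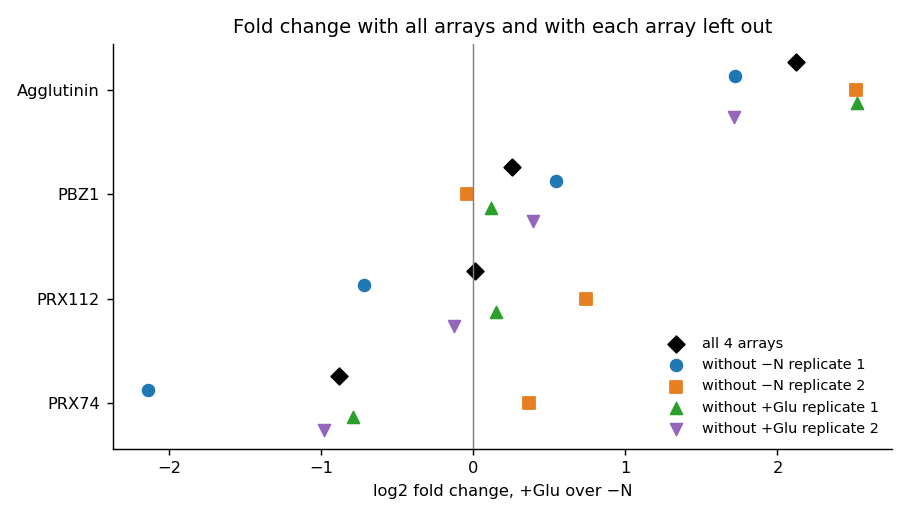
Log2 fold change of +Glu over −N (horizontal axis) for each of the 4 genes with all 4 arrays (black diamonds) and with each array left out in turn (coloured symbols). Agglutinin stays between 1.71 and 2.52, whereas PRX74 runs from −2.14 to 0.37 and PRX112 from −0.72 to 0.74 depending on which −N array is left out.

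The gaps between replicates were set against those of all genes. Over the 17905 genes the median gap was 0.38 on the log2 scale between the −N arrays and 0.24 between the +Glu arrays. The −N gap was 2.51 in PRX74 and 1.46 in PRX112 (brighter probe set), and 0.251% and 2.70% of genes had a gap at least as large. It was 0.80 in Agglutinin and 0.59 in PBZ1, with 17.4% and 31.0% of genes at least as far apart. Between the +Glu arrays the order was another one. There Agglutinin had the widest gap, 0.81, reached by 4.03% of genes, and the peroxidases had narrow ones, 0.27 in PRX112 and 0.19 in PRX74, reached by 44.6% and 60.0% of genes. PBZ1 lay beside PRX112 with a gap of 0.28.

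**Figure D3:**
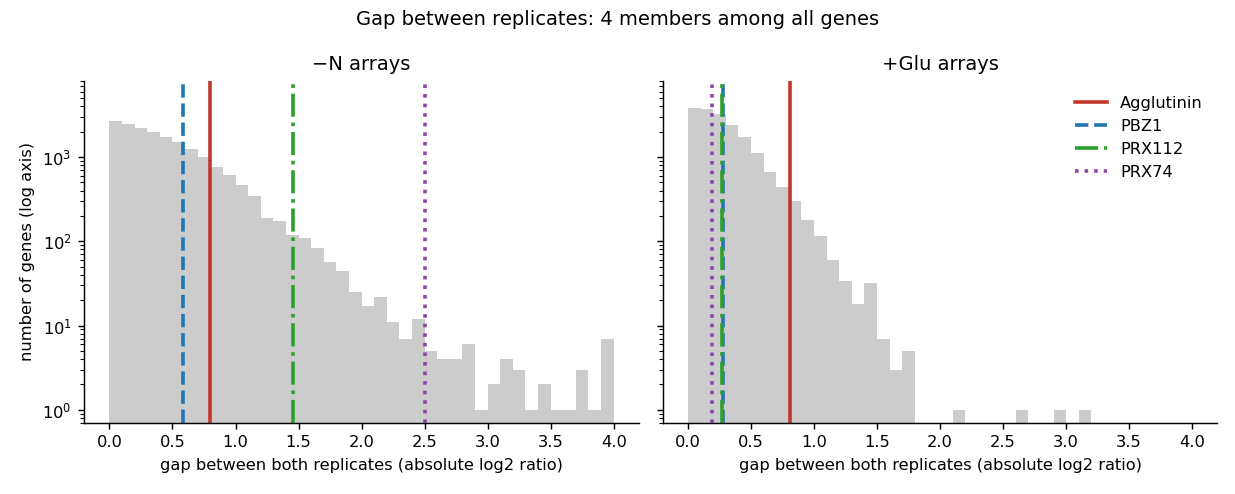
Number of genes (vertical axis, log scale) by the absolute log2 ratio between both replicates (horizontal axis) in the −N arrays (left) and the +Glu arrays (right), with the gap of each of the 4 genes as a vertical line, and genes beyond 4 counted in the last bin. PRX74 lies in the far tail of the −N panel at 2.51 and near the low end of the +Glu panel at 0.19.

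The 4 profiles were then compared with each other. Likeness was measured as the root mean square distance between log2 profiles over the 4 arrays, each centred on its own mean, so that 0 is the same shape. With PRX112 read by its brighter probe set, the nearest members were the peroxidases PRX112 and PRX74 at 0.582, followed by PBZ1 and PRX112 at 0.757. The second PRX112 probe set, in which −N replicate 2 was the lowest array and not the highest, was not compared. Agglutinin lay at 1.12 from PBZ1, 1.10 from PRX112 and 1.63 from PRX74. With 4 arrays these distances describe the arrays and carry no test.

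Among genes with a name, the profiles most like Agglutinin were those of a pair of chitinase genes and a COBRA-like gene. Chitinases cleave chitin, a polymer of fungal walls, and are grouped with the pathogenesis-related proteins. Cht6 (distance 0.324) read 74.7 and 87.2 in −N and 239.7 and 302.8 in +Glu, and Cht2 (distance 0.366) read 225.0 and 228.8 in −N and 708.6 and 870.8 in +Glu. BC1L9, of the brittle culm 1-like family, which takes part in cell wall building, was at 0.372 and read 650.7 and 868.8 in −N and 1544 and 2643 in +Glu. In all of them, as in Agglutinin, the groups did not overlap and +Glu was the higher. Since they were picked for this likeness, their order is no separate finding.

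For PRX74 the likest named profiles were less close than those found for PBZ1 and PRX112. The distance is not scaled by the spread of a profile. The highest array stood 5.68-fold above the lowest in PRX74, 2.74-fold in PRX112 and 1.61-fold in PBZ1. The nitrate transporter gene NRT2.3 (distance 0.289) read 327.1 and 1177 in −N and 236.4 and 340.4 in +Glu. The urea transporter gene DUR3 (distance 0.30) read 95.4 and 314.1 in −N and 98.0 and 120.4 in +Glu. AOS4, an allene oxide synthase gene of the jasmonate pathway, was at 0.328 and read 462.5 and 1427 in −N and 376.7 and 396.1 in +Glu. In each of these −N replicate 2 was the highest array, by 3.6, 3.29 and 3.09 times over −N replicate 1, against 5.68 times in PRX74. Since they were picked for this likeness, that is no separate finding. In AOS4, unlike PRX74, both +Glu arrays lay below both −N arrays.

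PRX112, by its brighter probe set, and PBZ1 had the closer matches by this unscaled distance. OsTBL13, a trichome birefringence-like gene, lay at 0.053 from PRX112 with 154.1 and 411.3 in −N and 242.7 and 303.3 in +Glu, and OsVIT1.2 and the protein kinase gene CIPK12 followed at 0.068 and 0.071. SPL2, a squamosa promoter-binding-like transcription factor gene, lay at 0.044 from PBZ1 with 472.7 and 302.5 in −N and 513.2 and 436.9 in +Glu. The other matches of PBZ1, CIN3 at 0.042 and OsTIFY8 at 0.048, were dim probe sets, below 13 on all 4 arrays.

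The protein-coding genes next to each member, 5 on either side in the RefSeq order, were read as a surrounding. Probe sets of their own were found for 7 of 10 neighbours of Agglutinin, 8 of PBZ1, 5 of PRX112 and 7 of PRX74. Of the 7 neighbours of Agglutinin, 0 had +Glu arrays wholly above the −N arrays and 1 had them wholly below, beside 14.9% and 10.1% of all genes. The latter was LOC4335075, at 109.9 and 92.3 in −N and 80.1 and 69.4 in +Glu. The log2 differences of the 7 lay between −0.43 and 0.14, against 2.12 in Agglutinin. The neighbours of PRX74 lay between −0.21 and 0.12, and −N replicate 2 read 1.08 to 1.57 times −N replicate 1 in them, against 5.68 times in PRX74. Those of PRX112 lay between −0.18 and 0.79. In them −N replicate 2 read 0.740 to 2.95 times −N replicate 1, a range that includes the 2.74 times of the brighter PRX112 probe set.

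The surrounding of PBZ1 was less even. LOC4352496, 4 places after PBZ1, read 46.5 and 18.0 in −N and 168.2 and 281.8 in +Glu (7.52-fold), and LOC4352495, 3 places after it, read 414.2 and 453.1 in −N and 1016 and 1292 in +Glu (2.65-fold). Both were singled out after their values were seen. On the other side, 5 and 3 places before PBZ1, LOC4352487 read 6249 and 3900 in −N and 5097 and 4590 in +Glu, and LOC4352488 read 2524 and 1560 in −N and 2436 and 2440 in +Glu. In both, −N replicate 2 was the lowest array, as in PBZ1, at 0.624 and 0.618 of −N replicate 1 against 0.666 in PBZ1. They too were singled out after their values were seen, and −N replicate 2 was also the lowest array in LOC4352494 and LOC4352496. Over the 8 measured neighbours of PBZ1 this ratio ran from 0.387 to 2.12, with −N replicate 1 the higher in 5. Whether probes of genes this close share transcripts was not tested.

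Beside PRX112 lie further genes that the RefSeq table lists as peroxidase. LOC4344277, directly before it, was dim, at 6.75 and 8.77 in −N and 13.5 and 13.1 in +Glu (1.73-fold). Its +Glu values lay wholly above its −N values, an order found in 14.9% of all genes. Among the 5 measured neighbours of PRX112 it was the only 1 in this order, and the groups of the other 4 overlapped. LOC4344281, a pair of places after PRX112, was not analysed here. The intensities of LOC4344277 are near the lowest of the table, where no detection call says whether a probe set is above background.

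**Figure D4:**
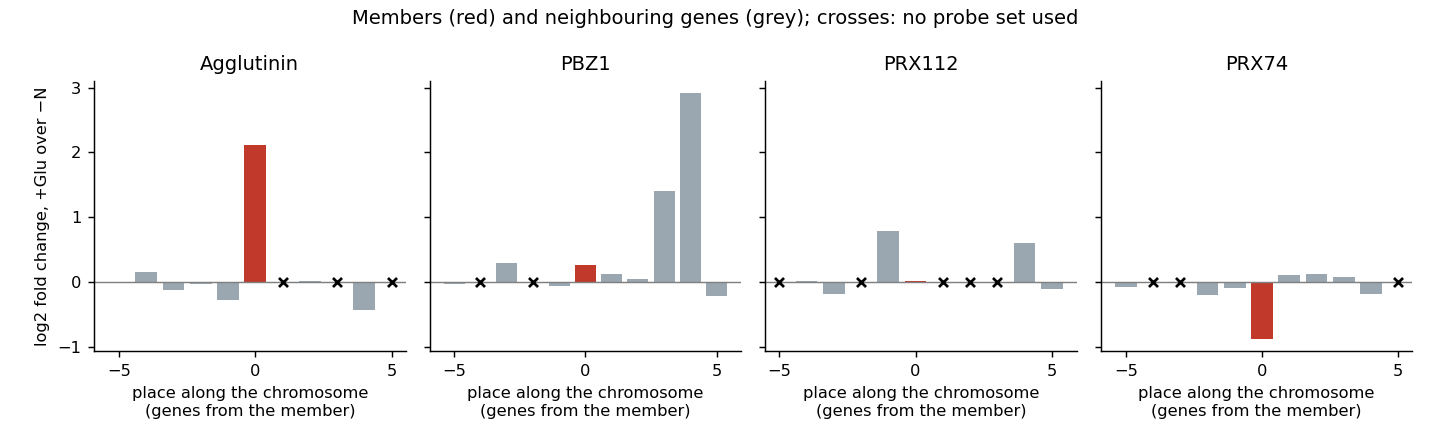
Log2 fold change of +Glu over −N (vertical axis) of each of the 4 genes (red) and of the 5 protein-coding genes on either side (grey), placed by their order along the chromosome (horizontal axis, counted in genes), with crosses for genes without a probe set used here. Agglutinin stands alone at 2.12 among neighbours between −0.43 and 0.14, whereas PBZ1 at 0.25 has 2 higher genes 3 and 4 places after it.

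The hydrogen peroxide that class III peroxidases use is removed inside the cell by catalases and ascorbate peroxidases. Of 10 such genes with a name, 9 were measured, and the 2-fold thresholds (2-fold and an unadjusted limma p under 0.05) were passed by 0 as higher and by 0 as lower, against 1.68% and 0.0447% of all genes. None of the 9 passed the unadjusted p without the fold limit, or an adjusted p under 0.05. Their median log2 difference was 0.14, against 0.03 over all genes, with a range of −0.14 to 0.44. In 3 of the 9 the +Glu arrays lay wholly above the −N arrays and in 0 wholly below, where the shares over all genes were 14.9% and 10.1%.

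The catalase gene CAT-A was the highest of them. It read 1905 and 2406 in −N and 2734 and 3087 in +Glu (1.36-fold), a log2 difference of 0.44 with a standard error of 0.24, and its 3 probe sets had log2 differences from 0.27 to 0.56. APX4 followed at 738.2 and 814.4 in −N and 871.2 and 974.6 in +Glu (1.19-fold), a log2 difference of 0.25 with a standard error of 0.22. The one negative value was that of the catalase gene CAT-B, at 2018 and 3003 in −N and 2075 and 2419 in +Glu (0.910-fold). Its 5 probe sets ran from −0.44 to 0.26, and without −N replicate 2 its log2 difference was 0.15. Adjusted over all genes, the limma p of each gene of this list was 1 after rounding.

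Hydrogen peroxide for the wall enzymes can come from superoxide made by NADPH oxidases. OsrbohB, the one named gene of this family, read 379.8 and 837.7 in −N and 580.3 and 867.0 in +Glu. Its groups overlapped, with a log2 difference of 0.33 and a standard error of 0.44 (1.26-fold). As in PRX74 and the brighter PRX112 probe set, −N replicate 1 was its lowest array. For Agglutinin, the other named lectin gene was salT, a mannose-binding lectin gene first known from salt-stressed rice. It read 599.2 and 562.8 in −N and 530.7 and 696.0 in +Glu (1.05-fold). Its groups overlapped where those of Agglutinin did not.

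NPR1 is a coactivator of pathogenesis-related genes in salicylate signalling, and 6 of 7 named genes of the NPR1 type were measured. They were added after values had been seen and are described only. NH1, the rice NPR1 gene, read 565.5 and 399.1 in −N and 568.1 and 614.8 in +Glu (1.24-fold). NH2 read 1240 and 1280 in −N and 1537 and 1895 in +Glu (1.36-fold). NH3 read 303.4 and 227.5 in −N and 366.1 and 415.6 in +Glu (1.49-fold). In these 3 of 6 the +Glu arrays lay wholly above the −N arrays and in 0 wholly below, beside 14.9% and 10.1% of all genes. The groups of the other 3 overlapped, with NPR4 at 1.11-fold, NH4 at 1.00-fold and NH5, a dim probe set, at 0.876-fold. Over the 6 the log2 differences ran from −0.19 to 0.57 with a median of 0.23. The 4 probe sets of NH3 ran from 0.19 to 0.66.

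**Figure D5:**
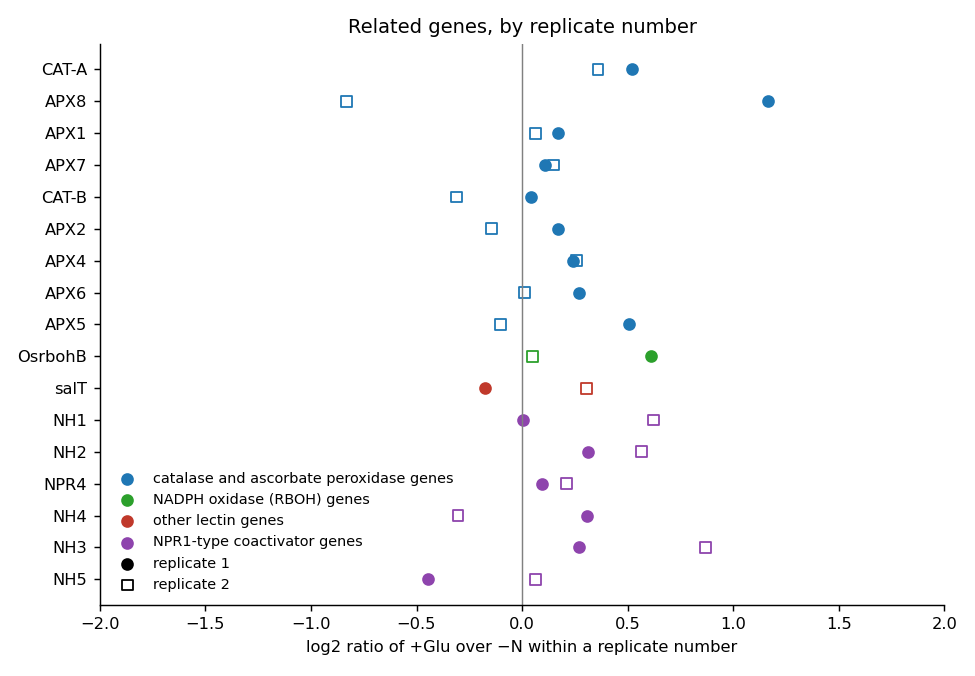
Log2 ratio of +Glu over −N within replicate 1 (filled circles) and within replicate 2 (open squares) on the horizontal axis, for the measured catalase and ascorbate peroxidase genes, OsrbohB, salT and the NPR1-type genes, coloured by list. CAT-A lies at 0.52 and 0.36, OsrbohB at 0.61 and 0.05, and salT on both sides of 0 at −0.18 and 0.31.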

How the data were processed

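The values deposited by the authors are linear intensities of probe sets, from 3.15 to 21380. GCOS and RMA are named in the submitters' processing notes, without version, order or settings. The log2 of each intensity was taken with no pseudocount and no filter, after 123 control probe sets were left out of 57381. A gene was represented by its brightest probe set among those with 1 annotated gene (22436 probe sets, 17905 genes). limma 3.58.1 (lmFit and eBayes, two-sided, no block) in R 4.3.3 compared +Glu with −N over all genes with Benjamini-Hochberg adjustment. The script was tested on simulated data. Figures used Python 3.11.15, pandas 2.3.3 and matplotlib 3.10.9.

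Names and gene order came from the RefSeq table of assembly ASM3414082v1. The members and lists were chosen with earlier results of these data known. From each list, genes past the 2-fold thresholds were to be named, and otherwise the 2 most positive and 2 most negative. Names gave no usable further gene for class III peroxidases, the PR10 family or other pathogenesis-related proteins, and 23 TLP names, a name with more than 1 meaning, were not used. The smallest adjusted p over all genes was 0.505, and 0 genes passed an adjusted p of 0.05 in limma, against 749 at an unadjusted p under 0.05, 309 of them past the 2-fold thresholds. Arrays have no read depth, so their number limits the precision. Alternatives were a replicate block, each array left out, quantile normalization, median centring, a filter on dim probe sets, a pseudocount of 16 and other probe sets.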

Additional observations from a re-analysis of the deposited data

How the results depend on the processing

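The log2 difference of Agglutinin lay between 1.71 and 2.52 with each array left out, that of PBZ1 between −0.04 and 0.55, that of PRX112 between −0.72 and 0.74, and that of PRX74 between −2.14 and 0.37. Quantile normalization gave 2.09, 0.29, −0.03 and −0.95 in the same order of genes, and the pseudocount of 16 gave 1.67 for Agglutinin. Over all genes, 309 were past the 2-fold thresholds, and 211 to 663 with each array left out: 663 without −N replicate 1 and 657 without −N replicate 2. Of these, the genes lower in +Glu numbered 8, but 15 with the replicate block, 14 after quantile normalization, 3 with the pseudocount of 16, and 252, 39, 14 and 15 without −N replicate 1, −N replicate 2, +Glu replicate 1 and +Glu replicate 2. The higher ones numbered 301, but 618 without −N replicate 2 and 196 without +Glu replicate 2. The cause was not tested. The lists of catalases and ascorbate peroxidases, NADPH oxidases and lectins had 0 genes past these thresholds under every alternative run. The replicate block cannot change a log2 difference in this balanced layout, so the 2.12 of Agglutinin under it is no check. With the block, 347 genes were past the thresholds. Same-numbered arrays deviated together (correlation of 0.429 over 17905 genes, not independent), but the labels give no shared batch and there are only 2 pairs. The peroxidase, PR10 and pathogenesis-related lists gave no value.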
